A study of Mus musculus with 15 samples.

Results

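The large intestine was set against the duodenum across all genes of the deposited expression table. Both tissues came from male C57BL/6 wild type mice of 2 to 3 months, and the labels name no treatment and no engineered allele. The microbial status of the mice, germ-free or colonised, is not given here, and its part in the differences below was not tested. The large intestine, which the protocol equates with the colon, is represented by 3 libraries that carry the numbers 24, 25 and 27. The duodenum, the first section of the small intestine, is represented by 3 libraries that carry the numbers 24, 27 and 28. The series holds 15 libraries in all, 3 each from large intestine, ileum, jejunum, duodenum and liver, and asks how gene expression differs along the gut. The contents were washed out with saline before the sections were frozen, and RNA was taken from whole sections of gut wall, so every cell type of the wall contributes to each value. Nothing in the labels says whether a library is 1 mouse or a pool, so the p-values below measure the spread between these libraries, which may be technical.

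Values are FPKM, fragments per kilobase of transcript scaled to the number of mapped fragments, as deposited. Records that share a gene symbol were added together, which left 23349 genes. Of these, 12983 reached 1 FPKM in 3 or more of the 6 libraries and were tested. The difference of a gene is the mean of log2(FPKM + 1) in large intestine minus the mean in duodenum, so a positive value means higher in large intestine, and changes of genes near 1 FPKM are understated. A gene is called changed where the Benjamini-Hochberg adjusted p of limma was under 0.05 and the difference was at least 1 on the log2 scale in either direction. Values by library are given in the order 24, 25 and 27 for large intestine and 24, 27 and 28 for duodenum.

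The duodenum receives acid, bile and pancreatic juice, and its villi carry enterocytes whose brush border splits sugars and peptides and takes up sugars, amino acids, lipids, iron and vitamins. The colon has no villi. Its surface is lined by absorptive colonocytes and many goblet cells, it recovers salt and water, it houses a dense microbiota behind a mucus layer, and it uses the short-chain fatty acids that the microbes make. Paneth cells, which secrete antimicrobial peptides at the crypt base, are normally found in the small intestine and not in the mouse colon.

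The 6 libraries had summed FPKM of 384287 to 389243 in large intestine and 428494 to 534555 in duodenum, and 12810 to 12862 genes in large intestine and 11832 to 12292 genes in duodenum reached 1 FPKM. The number of reads behind the libraries is not known. Spearman correlations across tested genes were 0.974 to 0.985 within a tissue and 0.786 to 0.801 between the tissues. Some libraries stood apart from their own group. Duodenum library 28 had 12644 FPKM summed over 15 listed markers of Brunner gland and stomach, against 25.5 and 18.2 in the other duodenum libraries, and 17.8 to 31.5 in large intestine. Its values of Tff2 and Gkn3, both on this list of Brunner gland and stomach markers, were 7792 and 2071 FPKM, and Atp4b of the acid-secreting parietal cell was at 0 there. That library also had 101 FPKM of the pancreatic amylase gene Amy2a5, against 6.70 and 0.734 FPKM. Large intestine library 24 had 14602 FPKM of Mptx1, a pentraxin gene, against 362 and 38.0 FPKM in libraries 25 and 27. The same library had 2521 FPKM summed over the Paneth cell list, against 589 and 612 FPKM, and 2155 FPKM of it was Ang4; without Ang4 the sums were 366 FPKM in library 24 and 406 and 525 FPKM in libraries 25 and 27. Tff2 was not called with a difference of -3.94, and without duodenum library 28 the difference was -0.21.

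In the large intestine, 1655 genes were called higher (12.7% of the genes tested) and 929 were called lower (7.16%), which is 19.9% called in either direction. These shares are the background for the counts of each gene list below. The higher calls were more numerous, and fewer of them were large: 138 of them reached a log2 difference of 3, whereas 259 of the lower calls did. The 3 libraries of each tissue did not overlap for 70% of the tested genes, and every called gene was among these. The median difference over all tested genes was 0.26, which is a shift towards the large intestine. It followed the scaling of the libraries: median-of-ratios scaling put the median at -0.006 and made 46.3% of calls higher, quantile normalization put it at 0.049 with 51.9% higher, and equal summed FPKM put it at 0.518 with 77.4% higher, against 64% with the values as deposited. No called gene took the opposite sign in any of these. Among the 11069 genes with at least 1 FPKM in all 6 libraries, which could not pass the filter through one tissue alone, 10.6% were called higher and 5.67% were called lower.

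**Figure D1:**
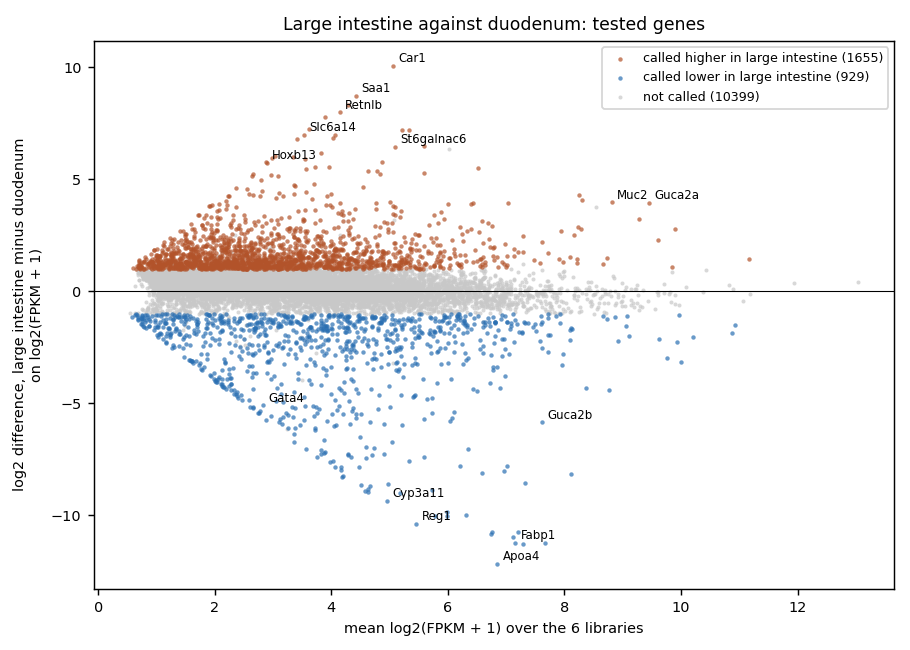
Each point is 1 of the tested genes, with its mean log2(FPKM + 1) over the 6 libraries on the x axis and its log2 difference, large intestine minus duodenum, on the y axis. The 1655 genes called higher lie above the line at 0 and the 929 called lower below it, and the lower ones reach the larger sizes, down to -12.16 for Apoa4.

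Genes that digest and absorb sugar were lower in the large intestine without exception. All 14 listed genes were tested, and all 14 were called lower in large intestine, beside 7.16% of all tested genes, with a median log2 difference of -4.76. Only 6 of them reached 1 FPKM in all 6 libraries, and these 6 were also called lower. Summed over the list, the large intestine libraries had 143 to 174.5 FPKM and the duodenum libraries 4079 to 4435 FPKM. Sis, the sucrase-isomaltase of the brush border, had 0.406, 0.157 and 0.167 FPKM in large intestine, against 489, 587 and 483 FPKM in duodenum (log2 difference -8.71, SE 0.12, adjusted p = 7.92e-10). Lct, which splits lactose, had 0.113, 0.0287 and 0.0367 FPKM in large intestine, against 333, 323 and 308 FPKM in duodenum (log2 difference -8.25, SE 0.09, adjusted p = 3.99e-10). Both were close to 0 in every large intestine library and high in every duodenum library, with little spread within the duodenum. Treh, the trehalase, and Slc2a2, the basolateral glucose transporter, differed by -7.83 and -7.02. Slc5a1, which brings in glucose with sodium, kept a level that could be measured in the large intestine, 25.8, 26.5 and 24.5 FPKM against 531, 503 and 559 FPKM in duodenum (-4.32). The fructose transporter Slc2a5 differed by -4.89. Bulk RNA cannot tell fewer cells of a type from less RNA per cell, here or in any result below. The smooth muscle list summed to 2901 to 4302 FPKM in large intestine and 768 to 942 FPKM in duodenum, and its part in these differences was not tested.

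Sequences upstream of Sis, Lct and Apoa4 are shown because these are among the most unequal digestive genes and the proximal promoters of such genes are known to be read by intestinal factors of the GATA, HNF1, CDX and HNF4 families, several of which are described further on. Each runs 5′ to 3′ on the strand of the gene, 250 bases before to 50 after its start, from RefSeq on GRCm38.p6. Capitals mark matches on either strand to a short motif known for each family, and no marked match overlaps another. The motif searched for the first family was AGATAA. The one searched for HNF1 factors was GTTAAT, and the one searched for CDX factors was TTTATG. The longer one searched for HNF4 factors was CAAAGTNCA.
Sis, chr3:72967814-72968113, minus strand: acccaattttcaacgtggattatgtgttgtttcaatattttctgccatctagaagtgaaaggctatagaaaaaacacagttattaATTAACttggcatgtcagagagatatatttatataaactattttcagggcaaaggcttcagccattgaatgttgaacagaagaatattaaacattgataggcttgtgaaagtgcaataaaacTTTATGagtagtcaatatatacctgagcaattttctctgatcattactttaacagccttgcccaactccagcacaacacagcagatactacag
Lct, chr1:128328269-128328568, minus strand: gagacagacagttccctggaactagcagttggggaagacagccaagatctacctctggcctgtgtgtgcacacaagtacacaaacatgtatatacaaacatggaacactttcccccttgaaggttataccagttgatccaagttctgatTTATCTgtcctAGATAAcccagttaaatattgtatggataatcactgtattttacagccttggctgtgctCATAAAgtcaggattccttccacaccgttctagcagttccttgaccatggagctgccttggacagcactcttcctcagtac
Apoa4, chr9:46240594-46240893, plus strand: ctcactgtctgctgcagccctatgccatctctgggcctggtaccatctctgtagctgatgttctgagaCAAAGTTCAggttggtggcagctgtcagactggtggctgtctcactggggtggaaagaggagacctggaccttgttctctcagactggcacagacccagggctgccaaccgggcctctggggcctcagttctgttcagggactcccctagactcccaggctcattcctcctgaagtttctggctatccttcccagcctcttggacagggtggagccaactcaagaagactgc
Over 27025 promoters of this length, 11.4% hold AGATAA, 7.2% hold GTTAAT, 12.1% hold TTTATG and 1.41% hold CAAAGTNCA. The Sis promoter holds GTTAAT 165 bases upstream of the start and TTTATG 43 bases upstream. The Lct promoter holds AGATAA at 101 and 90 bases and TTTATG at 31 bases upstream, and the Apoa4 promoter holds CAAAGTNCA at 182 bases upstream. A match is a stretch of letters and was not measured as a binding site.

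Lipid uptake and the assembly of chylomicrons, the particles that carry dietary fat into lymph, were lower with few exceptions. Of 26 listed genes 25 were tested, 23 were called lower and 0 higher, with a median of -5.63; of the 12 at 1 FPKM in all 6 libraries, 11 were called lower. The list summed to 481 to 727 FPKM in large intestine and 28088 to 34071 FPKM in duodenum. Apoa4, an apolipoprotein of chylomicrons, had the largest negative difference of all tested genes with a value in both tissues. It had 1.87, 0.562 and 0.0981 FPKM in large intestine, against 8689, 6907 and 7854 FPKM in duodenum (log2 difference -12.16, SE 0.33, adjusted p = 1.88e-07). Fabp1, a fatty acid binding protein of the enterocyte, had 1.78, 3.69 and 0.917 FPKM in large intestine, against 6628, 6477 and 7809 FPKM in duodenum (log2 difference -11.21, SE 0.30, adjusted p = 8.78e-08). Both were at a few FPKM or less in every large intestine library and among the abundant transcripts of every duodenum library. Apoa1 and Apoc3, which lie beside Apoa4 on chromosome 9, differed by -10.77 and -10.02. Mttp, which loads lipid onto apolipoprotein B, differed by -8.58, and Npc1l1, the cholesterol uptake protein, by -7.27. Fabp2, the second enterocyte fatty acid binding protein, was lower by less, with 180, 491 and 457 FPKM in large intestine and 2827, 2894 and 3498 FPKM in duodenum (-3.15). The 2 members not called were Scarb1 (0.85) and Pnliprp2 (-2.75, adjusted p = 0.0912).

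Genes of peptide and amino acid handling were mostly lower. Among brush border and digestive peptidases, 13 of 15 tested were lower and 1 was higher (median -3.36), and of the 10 at 1 FPKM in all 6 libraries 8 were lower. Anpep, the aminopeptidase N, had 5.84, 2.91 and 3.53 FPKM in large intestine, against 1256, 955 and 1109 FPKM in duodenum (log2 difference -7.80, SE 0.21, adjusted p = 2.54e-08). Tmprss15, the enteropeptidase that activates trypsin, was listed at 0 in all 3 large intestine libraries and had 3.18, 11.6 and 7.79 FPKM in duodenum. Mep1a, a meprin subunit of the brush border, was the exception, with 80.9, 141 and 112 FPKM in large intestine and 41.8, 37.4 and 35.6 FPKM in duodenum (log2 difference 1.48, SE 0.19, adjusted p = 0.000235). Among 16 peptide and amino acid transporters 12 were lower and 2 higher (median -2.93). Slc6a19, the main neutral amino acid carrier of the small intestine, had 0.715, 0.539 and 0.474 FPKM in large intestine, against 105, 109 and 112 FPKM in duodenum (-6.12). Slc6a14, which also carries neutral amino acids and in addition cationic ones, ran the other way, with 152, 129 and 113 FPKM in large intestine and 0, 0 and 0.0624 FPKM in duodenum (log2 difference 7.01, SE 0.12, adjusted p = 1.50e-09). The 3 large intestine libraries of Slc6a14 lay above 100 FPKM and the duodenum libraries at or next to 0. The promoter of Slc6a14 is shown because this carrier ran the other way. It holds none of the 4 motifs. The promoter of Guca2a, also called higher and shown further on, holds AGATAA, so no contrast is drawn from a single promoter.
Slc6a14, chrX:21714650-21714949, plus strand, RefSeq on GRCm38.p6: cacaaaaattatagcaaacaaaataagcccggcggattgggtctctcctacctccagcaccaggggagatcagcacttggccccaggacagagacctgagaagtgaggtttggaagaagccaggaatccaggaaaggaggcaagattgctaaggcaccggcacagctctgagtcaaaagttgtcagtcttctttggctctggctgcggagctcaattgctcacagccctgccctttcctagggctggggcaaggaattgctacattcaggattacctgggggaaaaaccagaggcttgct
Slc15a1, the oligopeptide carrier, varied between the large intestine libraries, with 21.1, 13.5 and 3.85 FPKM against 108, 99.1 and 102 FPKM in duodenum (-3.17).

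Genes of iron, calcium and vitamin uptake differed by widely varying amounts. Of 26 listed genes 20 were tested, 11 were lower and 1 was higher (median -1.10). Of the 14 at 1 FPKM in all 6 libraries, 5 were lower and 1 was higher, so the count of lower ones was fixed in part by the filter. Rbp2, which holds retinol inside the enterocyte, had 15.2, 21.4 and 11.3 FPKM in large intestine, against 4452, 4290.4 and 5367 FPKM in duodenum (log2 difference -8.15, SE 0.22, adjusted p = 1.89e-08). Slc46a1, the proton-coupled folate carrier, differed by -4.65, and Cubn and Amn, the receptor pair for vitamin B12 bound to intrinsic factor, by -4.63 and -4.73. S100g, the intracellular calcium carrier, had 2.59, 0.309 and 4.88 FPKM in large intestine, against 27.9, 36.6 and 131 FPKM in duodenum (-4.12). Library 28 was the highest duodenum library by far, and without it the difference was -3.45. Slc40a1, the iron exporter ferroportin, was the one member called higher, with 36.5, 24.8 and 23.2 FPKM in large intestine and 3.84, 6.42 and 8.5 FPKM in duodenum (log2 difference 2.04, SE 0.28, adjusted p = 0.000706). The iron reductase gene Cybrd1 and the calcium channel gene Trpv6 stayed under the filter in both tissues.

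**Figure D2:**
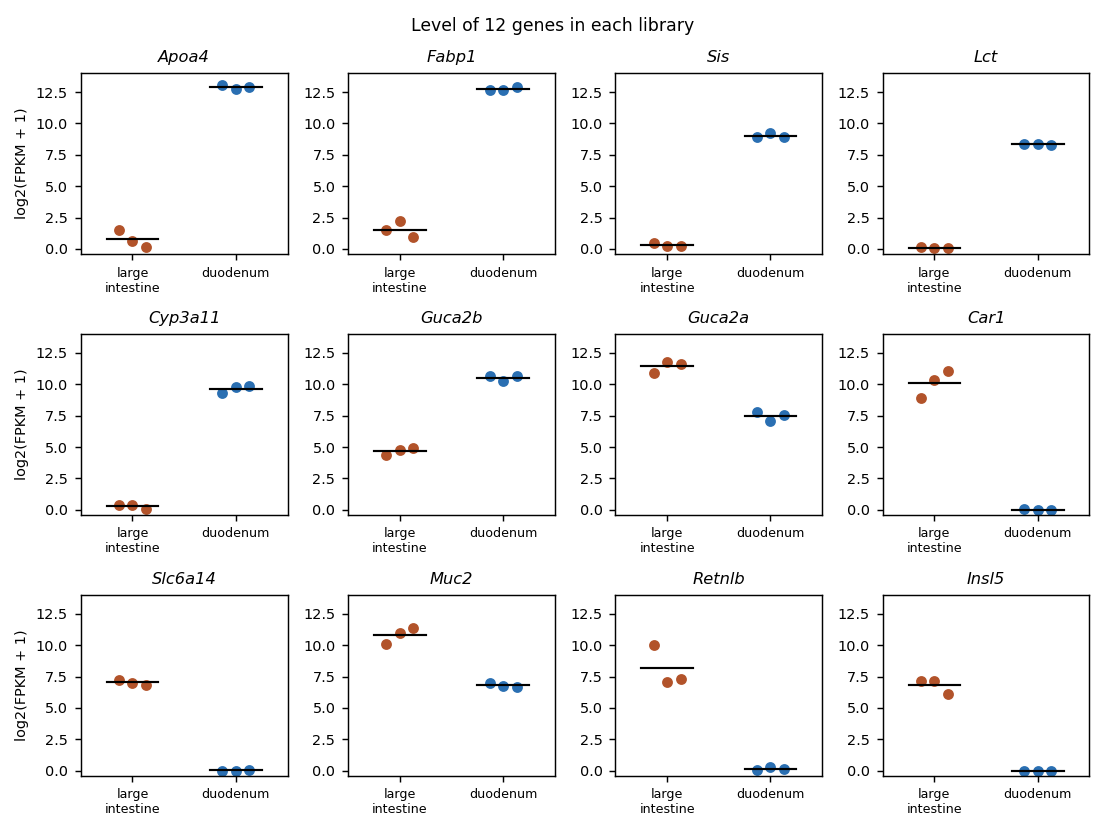
Level of 12 genes in each library, as log2(FPKM + 1), with large intestine on the left, duodenum on the right, points for the 3 libraries of each tissue in number order and a line at their mean. The groups do not overlap in any panel, and the spread within large intestine is widest for Car1, Retnlb and Apoa4.

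Ion transport genes were higher more often than lower, beside 12.7% higher and 7.16% lower over all tested genes. Among sodium, potassium and proton transport genes, 6 of 16 tested were higher and 1 lower (median 0.57). Among chloride, bicarbonate and guanylin genes 10 of 21 were higher and 3 lower (median 0.82). Scnn1a, the alpha subunit of the epithelial sodium channel, had 38.1, 44.0 and 30.9 FPKM in large intestine, against 3.53, 3.62 and 3.49 FPKM in duodenum (log2 difference 3.07, SE 0.13, adjusted p = 2.30e-07). Hsd11b2, the enzyme that shields the mineralocorticoid receptor from glucocorticoid, had 163, 202 and 166 FPKM in large intestine, against 4.47, 3.08 and 3.38 FPKM in duodenum (log2 difference 5.26, SE 0.14, adjusted p = 1.54e-08). The receptor gene Nr3c2 and the channel's beta subunit gene Scnn1b were also higher, by 1.39 and 1.84, whereas the gamma subunit gene Scnn1g stayed under the filter at no more than 0.444 FPKM. The sodium-proton exchanger gene Slc9a3 was not called (-0.14), and its regulator Slc9a3r1 was lower (-1.81).

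Carbonic anhydrase 1, which hydrates carbon dioxide to bicarbonate and is a known colonocyte product, had the largest positive difference of all genes with a value in both tissues. Car1 had 468, 1303 and 2138 FPKM in large intestine, against 0.0263, 0 and 0 FPKM in duodenum (log2 difference 10.08, SE 0.59, adjusted p = 0.000111). Its large intestine libraries differed among themselves by more than 4 times, with library 24 the lowest, and none came near the duodenum. Car2 and Car4 were higher by 3.92 and 1.75. The chloride-bicarbonate exchangers parted: Slc26a3 was higher (159, 194 and 121 FPKM in large intestine, 55.5, 59.6 and 53.4 FPKM in duodenum, 1.45), and Slc26a6 was lower (1.13, 1.08 and 0.937 FPKM in large intestine, 98.1, 123 and 114 FPKM in duodenum, -5.77). The chloride channel gene Cftr was not called (0.34).

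The guanylin genes, whose peptides act on the receptor guanylate cyclase C to drive chloride and bicarbonate secretion, were split between the tissues. Guca2a, guanylin, had 1904, 3418 and 3179.8 FPKM in large intestine, against 219, 132 and 188 FPKM in duodenum (log2 difference 3.96, SE 0.28, adjusted p = 5.66e-06). Guca2b, uroguanylin, had 19.8, 26.5 and 29.1 FPKM in large intestine, against 1642, 1223 and 1644 FPKM in duodenum (log2 difference -5.85, SE 0.19, adjusted p = 4.44e-08). Each gene was far above the other tissue in all 3 libraries, in opposite directions. The receptor gene Gucy2c had 50.5, 66.3 and 69.8 FPKM in large intestine and 99.4, 95.6 and 97.8 FPKM in duodenum, a difference of -0.65 that was not called for its size. Both ligand genes lie on chromosome 4, at 119637732 to 119639465 and 119656603 to 119658945 in mm10, and 17.1 kb separate them. Their promoters are shown because 2 neighbouring genes for the same receptor ran in opposite directions. Capitals mark the motifs named above, AGATAA on either strand at 144 and 120 bases upstream of Guca2a and GTTAAT at 33 bases upstream of Guca2b, and the other motifs are not in these windows.
Guca2a, chr4:119637482-119637781, plus strand, RefSeq on GRCm38.p6: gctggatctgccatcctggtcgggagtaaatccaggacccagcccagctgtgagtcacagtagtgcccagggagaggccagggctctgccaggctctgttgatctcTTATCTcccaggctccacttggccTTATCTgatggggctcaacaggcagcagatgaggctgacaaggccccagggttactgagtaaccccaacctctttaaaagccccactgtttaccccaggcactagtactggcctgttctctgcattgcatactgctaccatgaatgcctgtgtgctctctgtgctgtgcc
Guca2b, chr4:119658896-119659195, minus strand, RefSeq on GRCm38.p6: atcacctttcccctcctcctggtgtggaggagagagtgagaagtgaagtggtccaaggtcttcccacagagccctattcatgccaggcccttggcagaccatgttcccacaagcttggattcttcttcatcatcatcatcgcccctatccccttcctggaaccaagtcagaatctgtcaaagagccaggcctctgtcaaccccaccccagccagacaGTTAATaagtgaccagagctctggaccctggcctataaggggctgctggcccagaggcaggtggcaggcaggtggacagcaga

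Aquaporins were likewise divided, with 2 of 6 tested members higher and 4 lower, beside 12.7% and 7.16% over all tested genes. Of the 4 at 1 FPKM in all 6 libraries, 2 were higher and 2 lower. Aqp4, a basolateral water channel, had 135, 129 and 87.9 FPKM in large intestine, against 5.01, 3.95 and 2.37 FPKM in duodenum (log2 difference 4.64, SE 0.25, adjusted p = 4.61e-06). Aqp8, an apical one of colonocytes, had 219.5, 271 and 90.7 FPKM in large intestine, against 13.7, 22.6 and 12.4 FPKM in duodenum (3.40). Aqp3, Aqp7, Aqp11 and Aqp1 were lower, at -3.82, -2.35, -2.20 and -1.34.

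Short-chain fatty acid genes were mostly higher: 8 of 14 tested were called higher and 1 lower (median 1.11), and 5 were higher with median-of-ratios scaling. Slc5a8, which takes up butyrate with sodium, had 60.9, 43.1 and 37.6 FPKM in large intestine, against 0.617, 0.0485 and 0.258 FPKM in duodenum (log2 difference 5.20, SE 0.21, adjusted p = 5.16e-07). Acsm3, an acyl-CoA synthetase for medium and short chains, was higher by 3.79, and Ffar2, a receptor for short-chain fatty acids, by 2.38. The monocarboxylate carrier gene Slc16a1 was higher by 1.14, and by 0.829 with median-of-ratios scaling, where it was not called. Slc16a3, the lactate carrier, was the member called lower (-1.99). In the list of fatty acid oxidation and ketone synthesis, 7 of 24 were lower and 1 higher (median -0.64), and 11 were lower with median-of-ratios scaling. Peroxisomal Acaa1b and Ehhadh and mitochondrial Hadh, which take part in breaking down fatty acids, were lower, at -2.34, -1.58 and -1.71.

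Cholesterol synthesis genes leaned to the large intestine by small steps. Of 21 tested, 10 were higher and 0 lower (median 0.99). With equal summed FPKM 16 were higher, and with the size of 1 tested against, rather than applied after the test, 2 were higher. Sqle, squalene epoxidase, had 39.4, 50.9 and 34.1 FPKM in large intestine, against 13.9, 11.8 and 11.4 FPKM in duodenum (log2 difference 1.65, SE 0.15, adjusted p = 2.85e-05). Lss and Fdft1, both on the sterol branch, were higher by 1.55 and 1.41. Library 25 was the highest large intestine library in each of these genes. Of 7 tested bile acid genes, Abcc3, which exports bile acid conjugates, was higher (1.17, and 0.861 and not called with median-of-ratios scaling). The basolateral bile acid exporter pair Slc51a and Slc51b was lower, at -4.92 and -1.86. The ileal uptake gene Slc10a2 and the signal gene Fgf15 stayed under the filter in both tissues.

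Genes that metabolise foreign compounds were mainly lower. Of 33 tested cytochrome P450 genes of families 1 to 3, which oxidise drugs and foreign compounds, 24 were lower and 5 higher (median -1.79), and of the 16 at 1 FPKM in all 6 libraries 10 were lower and 2 higher. Many of these genes have near-identical neighbours whose fragments the quantification may have shared out, so the split within a subfamily is uncertain. Cyp3a11, the main drug-oxidising enzyme of its subfamily, had 0.300, 0.295 and 0.0480 FPKM in large intestine, against 618, 863 and 916 FPKM in duodenum (log2 difference -9.35, SE 0.16, adjusted p = 1.80e-09). Cyp2b10, a well-known target of the receptor CAR, had 0.200, 0.0337 and 0.0144 FPKM in large intestine, against 564, 506 and 507 FPKM in duodenum (log2 difference -8.93, SE 0.10, adjusted p = 3.99e-10). In both, no large intestine library reached 1 FPKM. Cyp3a25, Cyp2c29 and Cyp1a1 differed by -7.96, -7.62 and -4.93. Cyp2d26 and Cyp2d34 ran in opposite directions. Cyp2d26 had 8.01, 8.24 and 9.04 FPKM in large intestine and 271, 258 and 268 FPKM in duodenum (-4.82), whereas Cyp2d34 had 97.6, 69.6 and 46.6 FPKM in large intestine and 1.51, 1.26 and 1.67 FPKM in duodenum (4.80). Cyp2c55 was also called higher, with 242, 566 and 729 FPKM in large intestine and 143, 151 and 195 FPKM in duodenum (1.52), but not without duodenum library 27 (1.47).

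Conjugating enzymes were more often lower than higher. Among glucuronidation and sulfation genes 10 of 18 tested were lower and 4 higher (median -1.28). Ugt2a3 differed by -5.55 and Ugt1a1, which conjugates bilirubin, by -3.46; the Ugt1a genes share exons at their 3′ end, so their separate values are uncertain. Sult1a1, a phenol sulfotransferase, ran the other way, with 143, 160 and 176 FPKM in large intestine and 3.12, 3.35 and 2.21 FPKM in duodenum (log2 difference 5.37, SE 0.14, adjusted p = 1.23e-08). Of 28 tested genes for glutathione S-transferases and glutathione synthesis, 11 were lower and 0 higher (median -0.90; 17 lower with median-of-ratios scaling, 10 lower and 2 higher with equal summed FPKM). Gsta1 had 6.6, 7.92 and 9.05 FPKM in large intestine, against 344, 525 and 639.6 FPKM in duodenum (-5.79), and its near copy Gsta2 differed by -5.49. Gstm3 and Gstm6 differed by -4.46 and -3.04. Among 40 esterases, epoxide hydrolases and alcohol, aldehyde and carbonyl enzymes, 21 were lower and 4 higher (median -1.18). Adh6a, an alcohol dehydrogenase, differed by -8.85 and Ephx2, the soluble epoxide hydrolase, by -4.77. The related aldo-keto reductase genes Akr1b7 and Akr1b8 parted, with -4.36 and 3.44. Aldh2, which clears acetaldehyde, was higher (1.2, and 0.885 and not called with median-of-ratios scaling).

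Drug transporters and nuclear receptors had medians near 0. Of 25 tested transporters, 9 were lower and 3 higher (median -0.04, and 0.21 with equal summed FPKM, where 5 were higher). Over all tested genes 7.16% were lower and 12.7% higher. Of the 16 transporters at 1 FPKM in all 6 libraries, 3 were lower and 2 higher, so the count of lower ones was fixed in part by the filter. Abcc2, which exports conjugates across the apical membrane, had 0.392, 0.307 and 0.543 FPKM in large intestine, against 52.4, 83.3 and 60.3 FPKM in duodenum (-5.53), and the nucleoside carrier Slc28a1 differed by -5.45. Abcb1a, P-glycoprotein, had 68.9, 91.4 and 85.5 FPKM in large intestine and 39.3, 43.9 and 45.6 FPKM in duodenum, a difference of 0.91 that was not called; it was called without large intestine library 24, with quantile normalization and with equal summed FPKM. Of 22 tested receptors and partners, 5 were lower and 2 higher, or 1 higher without duodenum library 28 (median -0.09, and 0.21 with equal summed FPKM, where 3 were lower). Nr1i3, the receptor CAR, had 1.32, 1.04 and 0.710 FPKM in large intestine, against 21.1, 41.2 and 29.1 FPKM in duodenum (log2 difference -3.92, SE 0.23, adjusted p = 5.44e-06). Nr1i2, the receptor PXR, differed by -0.80 and was not called, though it was with median-of-ratios scaling (-1.10). Pparg, a fatty acid receptor, was higher by 1.80, and Ahr was not called (0.21).

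**Figure D3:**
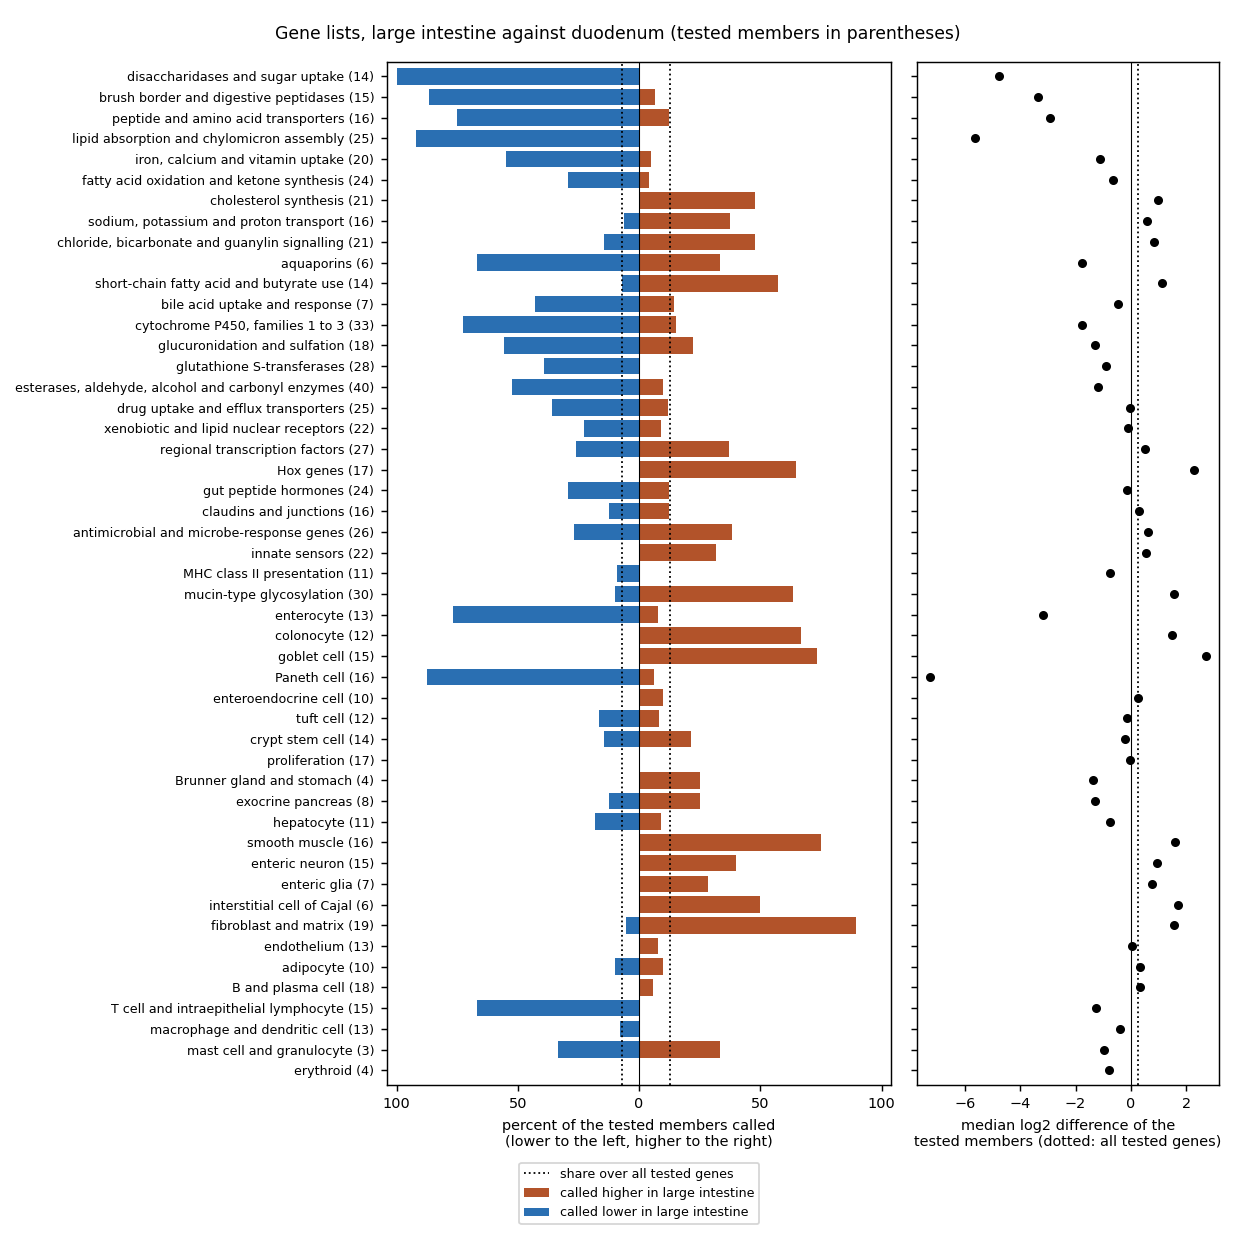
Left, the percent of the tested members of each gene list called lower (bars to the left) or higher (bars to the right) in large intestine, with dotted lines at the shares over all tested genes, 7.16% lower and 12.7% higher. Right, the median log2 difference of each list, large intestine minus duodenum, with a dotted line at 0.26, the median of all tested genes; the sugar, lipid and Paneth cell lists lie farthest to the left and the goblet cell and Hox lists farthest to the right.

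Transcription factors that mark position along the gut differed strongly. Of 27 tested regional factors 10 were higher and 7 lower (median 0.50). Of the 18 at 1 FPKM in all 6 libraries, 7 were higher and 2 lower, so the count of lower ones was fixed in part by the filter. Gata4, a factor of the proximal small intestine, had 0.0510, 0.0830 and 0.561 FPKM in large intestine, against 40.8, 42.4 and 37.8 FPKM in duodenum (log2 difference -5.09, SE 0.16, adjusted p = 3.65e-08), and Gata5 differed by -3.86. The libraries of the tissues were far apart for Gata4. Cdx1, a homeobox factor of the intestine, was higher by 1.43, while Cdx2, which sets intestinal identity, had 66.2, 112 and 126 FPKM in large intestine and 77.6, 64.1 and 79.5 FPKM in duodenum and was not called (0.41). Hnf4g, an enterocyte factor, had 10.2, 10.9 and 10.1 FPKM in large intestine, against 79.5, 129.8 and 106 FPKM in duodenum (log2 difference -3.19, SE 0.16, adjusted p = 9.46e-07), whereas its relative Hnf4a was not called (0.34). Foxd2, Foxa1 and Klf4, the last of which takes part in goblet cell maturation, were higher by 4.26, 2.85 and 2.58. Creb3l3, which drives genes of lipid handling, and Maf were lower, at -5.91 and -3.28. Pdx1, a duodenal and pancreatic factor, stayed under the filter with 0.277, 0.342 and 0.241 FPKM in large intestine and 0.764, 3.45 and 3.39 FPKM in duodenum.

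Hox genes, whose order along each cluster follows the order of body regions in which they act, were described by cluster and paralog group. Of the 39 deposited, 17 were tested and 11 were higher and 0 lower (median 2.28), and 22 stayed under the filter. In paralog groups 9 to 13, the posterior end, all 6 tested genes were higher with a median of 4.31; in groups 5 to 8 it was 3 of 6 with 1.42, and in groups 1 to 4 it was 2 of 5 with 0.79. The posterior genes passed the filter through the large intestine alone, so their count was fixed in part by the filter. Hoxb13 had 147, 48.9 and 20.4 FPKM in large intestine, against 0, 0.0485 and 0 FPKM in duodenum (log2 difference 5.73, SE 0.76, adjusted p = 0.00256). Hoxa10 had 22.5, 28.4 and 32.0 FPKM in large intestine, against 0.0877, 0.246 and 0.278 FPKM in duodenum (log2 difference 4.56, SE 0.14, adjusted p = 4.14e-08). Hoxa13 had 12.8, 16 and 11.3 FPKM in large intestine and was listed at 0 in the 3 duodenum libraries. Hoxb9 differed by 4.61 and Hoxa9 by 4.05. The large intestine libraries were not alike in this family. Hoxb13 was highest in library 24 and lowest in library 27, and Hoxd13, under the filter, had 2.60, 0.355 and 0.169 FPKM in the same order. Genes in the middle of the Hoxb cluster ran the other way: Hoxb6, chosen after its values were seen, had 1.53, 2.77 and 12.2 FPKM in large intestine and 1.46, 1.45 and 1.67 FPKM in duodenum and was not called. None of the Hoxc genes passed the filter, and some Hox genes leaned to the duodenum. Hoxc4, Hoxc5 and Hoxc6, chosen after their values were seen, had means of 0.28, 0.06 and 0.039 FPKM in large intestine. Their means in duodenum were 1.06, 0.612 and 0.878 FPKM. Hoxc8 to Hoxc13 were at or near 0 in both tissues. Hoxa4, chosen in the same way, differed by -0.335 and was not called for its size.

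**Figure D4:**
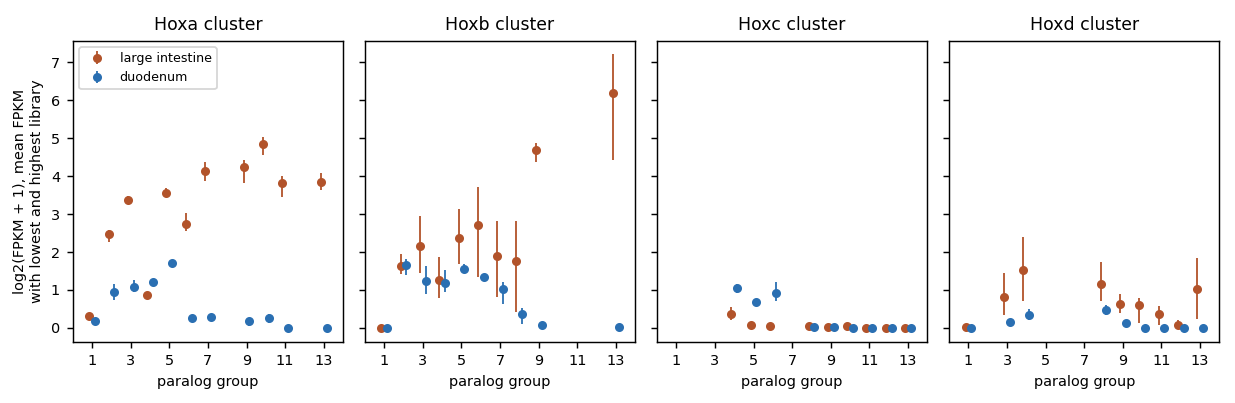
Level of the 39 Hox genes by cluster, with the paralog group on the x axis and log2(FPKM + 1) of the mean on the y axis, large intestine left of duodenum in each pair and bars from the lowest to the highest library. Large intestine is above duodenum for most Hoxa genes and for Hoxb9 and Hoxb13, and the bars are long for Hoxb3 to Hoxb8 and Hoxb13.

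The microRNA genes of the miR-196 family lie inside the Hox clusters, and their mature sequences are shown because the family is known to target Hox transcripts. The seed, bases 2 to 8, is in capitals and is the same in the family. Sequences and positions are from RefSeq on GRCm38.p6.
mmu-miR-196a-5p, from Mir196a-1 at chr11:96265187-96265208, plus strand: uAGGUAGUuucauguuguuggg
mmu-miR-196b-5p, from Mir196b at chr6:52230129-52230150, minus strand: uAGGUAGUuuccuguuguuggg
Mir196a-1, which lies 6.1 kb from Hoxb9, had 162, 60.6 and 342 FPKM in large intestine and was listed at 0 in the 3 duodenum libraries; it was called higher. Mir196b, chosen after its values were seen, had 0, 129.8 and 378 FPKM in large intestine, was listed at 0 in duodenum and did not pass the filter. Mir196a-2 on chromosome 15, chosen in the same way, yields the same mature sequence as Mir196a-1 and was listed at 0 in all 6 libraries. These values come from libraries of long RNA: they are fragments over short features and not levels of the mature microRNA. The antisense gene Hoxa11as had 70.0, 66.9 and 59.6 FPKM in large intestine and was listed at 0 in duodenum; it overlaps Hoxa11, and without a stated use of strand the fragments of the pair cannot be told apart.

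Of 24 tested hormone and endocrine genes 7 were lower, beside 7.16% lower over all tested genes, and 3 were higher, a share close to the 12.7% over all tested genes (median -0.13, and 0.08 with equal summed FPKM, where 7 were higher). Gip, the incretin of K cells, had 0.113, 0 and 0 FPKM in large intestine, against 185, 152 and 192 FPKM in duodenum (log2 difference -7.41, SE 0.11, adjusted p = 9.39e-10). Cck, which empties the gall bladder, and Ghrl, ghrelin, differed by -3.90 and -5.18, and Sct, secretin, by -1.95. Pyy, a peptide that slows transit and lowers appetite, had 111, 118 and 89.5 FPKM in large intestine, against 2.57, 0.251 and 1.56 FPKM in duodenum (log2 difference 5.56, SE 0.40, adjusted p = 0.000104). Insl5, a hormone of colonic L cells, had 144, 143 and 68.4 FPKM in large intestine and was listed at 0 in the 3 duodenum libraries. Gcg, the precursor of GLP-1, was higher by 1.57. Of 10 tested general enteroendocrine markers 1 was called, Cpe, a peptide-processing enzyme (1.34). Leaving out duodenum library 24 or 27 or large intestine library 24 or 25 gave 2 higher, and equal summed FPKM gave 4. Chga, a granin chosen after its values were seen, differed by -0.23.

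Mucus genes were mostly higher in the large intestine. Of the 15 goblet cell markers, all at 1 FPKM in all 6 libraries, 11 were higher and 0 lower, beside 10.6% higher among such genes, with a median of 2.70. Muc2, the main gel-forming mucin of the gut, had 1095, 2004 and 2586 FPKM in large intestine, against 127, 108 and 102 FPKM in duodenum (log2 difference 3.98, SE 0.30, adjusted p = 1.11e-05). Clca3, a secreted goblet cell protein listed under its older symbol, had 4345, 1544 and 999 FPKM in large intestine, against 181, 212 and 213 FPKM in duodenum (log2 difference 3.22, SE 0.51, adjusted p = 0.00169). Library 24 was the lowest of the 3 for Muc2 and the highest for Clca3, and without it the difference of Clca3 was 2.62. Klk1, a kallikrein, and Agr2, which folds mucin, were higher by 4.08 and 2.79. The abundant goblet cell product Zg16 was not called, with 3627, 5542 and 4546 FPKM in large intestine and 3644, 2690.2 and 4196 FPKM in duodenum (0.38), though it was with quantile normalization (1.33). Of 30 tested genes of mucin-type glycosylation 19 were higher and 3 lower (median 1.56). St6galnac6, a sialyltransferase, had 321, 350.4 and 294 FPKM in large intestine, against 2.46, 2.51 and 2.96 FPKM in duodenum (log2 difference 6.47, SE 0.11, adjusted p = 1.33e-09). B3galt5, which extends sugar chains with galactose, and Fut2, which adds the terminal fucose, were higher by 6.16 and 4.70. B3gnt6, which builds the core 3 chain, had 8.60, 40.4 and 54.5 FPKM in large intestine, against 0.401, 0.341 and 0.513 FPKM in duodenum (4.31), with library 24 the lowest. Gcnt4 and St3gal4 were among the 3 members called lower, at -3.0 and -2.17.

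Antimicrobial genes were divided by kind. Of 26 tested members of that list 10 were higher and 7 lower (median 0.63). Of the 12 at 1 FPKM in all 6 libraries, 3 were higher and 3 lower. Retnlb, which encodes the bactericidal goblet cell product RELM-beta, had 1046, 136 and 157 FPKM in large intestine, against 0.0505, 0.210 and 0.0700 FPKM in duodenum (log2 difference 8.0, SE 0.90, adjusted p = 0.00177). Library 24 alone held the high value, and without it the difference was 7.05. Saa1, a serum amyloid gene of the colon epithelium, had 952, 562 and 159 FPKM in large intestine, against 0.121, 0 and 0 FPKM in duodenum (log2 difference 8.73, SE 0.72, adjusted p = 0.000503). Wfdc2, a secreted protease inhibitor, had 247, 157 and 138 FPKM in large intestine, against 1.09, 0.771 and 20.3 FPKM in duodenum (5.36). It was not called when any 1 large intestine library was left out (5.11 to 5.53), and without duodenum library 28 the difference was 6.52. Reg1, Reg3a, Reg3b and Reg3g, secreted products of the Reg family, were lower, at -10.37, -8.96, -7.27 and -5.83. Reg3g, a lectin that keeps bacteria off the small intestinal surface, had 0.958, 1.43 and 6.94 FPKM in large intestine, against 287, 120.5 and 198 FPKM in duodenum. Its relative Reg3b had 1.41, 0.260 and 3.62 FPKM in large intestine, against 622, 259.9 and 314 FPKM in duodenum. Lypd8, which keeps bacteria away from the colon surface, was higher, with 4138, 3834 and 3372 FPKM in large intestine and 1597, 1221 and 1396 FPKM in duodenum (log2 difference 1.43, SE 0.20, adjusted p = 0.000386).

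Paneth cell genes were mostly lower, and which large intestine library held most of their remaining level depended on the members summed. Over the 14 members called lower, a set chosen by the same test, the large intestine libraries summed to 176, 17.5 and 10.8 FPKM. Over the 15 members without Ang4 the sums were 366.5, 406.4 and 525.5 FPKM, with library 24 the lowest. Of the 16 listed, all tested, 14 were lower and 1, Nupr1, a stress-response gene, was higher (3.95), with a median of -7.25; 5 were at 1 FPKM in all 6 libraries and 3 of these were lower. Without large intestine library 24 the count was again 14 lower and the median was -8.04. Lyz1, the Paneth cell lysozyme, had 18.7, 5.12 and 4.39 FPKM in large intestine, against 2531, 1730.4 and 1626 FPKM in duodenum (log2 difference -7.80, SE 0.54, adjusted p = 0.000102). Defa24, an alpha-defensin, had 24.5, 1.84 and 1.54e-06 FPKM in large intestine, against 13935, 7146 and 9897 FPKM in duodenum (log2 difference -11.22, SE 1.34, adjusted p = 0.0022). Library 24 was the highest large intestine library for both and still far under the duodenum, and without it the differences were -8.39 for Lyz1 and -12.53 for Defa24. Alpha-defensins are encoded by near-identical copies, and the value of any single one is uncertain. Mmp7, which activates pro-defensins, differed by -4.51. Ang4, an angiogenin of Paneth cells, had 2155, 182 and 86.4 FPKM in large intestine and 286, 178 and 156 FPKM in duodenum and was not called; its tissues overlapped, with library 24 far above the rest. The difference of Ang4 was 0.70, and -0.66 without library 24, and was called in neither case. Mptx1 had 14602, 362 and 38.0 FPKM in large intestine, against 7.69, 5.20 and 5.80 FPKM in duodenum, and was not called at a difference of 6.37 (SE 2.44, adjusted p = 0.0835), although its tissues did not overlap; without large intestine library 27 it was called, at 8.33, and without library 24 the difference was 4.06.

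Of 22 tested innate sensors 7 were higher and 0 lower (median 0.53, and 6 higher and 3 lower with median-of-ratios scaling). The shares over all tested genes were 12.7% higher and 7.16% lower. Of the 16 sensors at 1 FPKM in all 6 libraries, 3 were higher and 0 lower, with a median of 0.07, beside 10.6% higher among such genes. Tlr1, a receptor for bacterial lipopeptides, had 23.5, 19.6 and 19.1 FPKM in large intestine, against 2.37, 2.41 and 1.46 FPKM in duodenum (log2 difference 2.83, SE 0.15, adjusted p = 1.01e-06). Tlr4 and its partner Cd14, which sense lipopolysaccharide, were higher by 2.19 and 2.54, and Aim2, a sensor of DNA, by 3.09. Of 16 tested junction genes, 2 were higher, a share close to the 12.7% over all tested genes, and 2 were lower, beside 7.16%. Cldn8, a sealing claudin, was higher by 4.50, and Cldn15, which forms sodium-permeable pores, was lower at -1.76. Without large intestine library 25, 1 of the 16 was higher.

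Markers of cell types other than the absorptive epithelium also moved. Of 16 smooth muscle markers 12 were higher and 0 lower (median 1.59), and of 19 fibroblast and matrix genes 17 were higher and 1 lower (median 1.57). Actg2, the enteric actin of smooth muscle, had 503, 605 and 811 FPKM in large intestine, against 93.0, 82.5 and 114 FPKM in duodenum (log2 difference 2.70, SE 0.20, adjusted p = 8.81e-06). Postn, a matrix protein, had 63.8, 53.2 and 70.1 FPKM in large intestine, against 3.82, 4.59 and 4.23 FPKM in duodenum (log2 difference 3.60, SE 0.12, adjusted p = 6.12e-08). Fbln1, another matrix protein, was the one lower (-1.47). Of 6 tested markers of the interstitial cells of Cajal, which pace the muscle, 3 were higher and 3 were not called. Kit and Ano1, the defining genes of these cells, were higher by 2.55 and 3.23, and Kit is also on the mast cell list. Thbs4, the other one called, had 76.9, 47.8 and 32.9 FPKM in large intestine, against 0.555, 0.312 and 0.463 FPKM in duodenum. Of 15 enteric neuron markers 6 were higher and 0 lower, but 2 were without large intestine library 27, 3 without duodenum library 27, 2 with median-of-ratios or quantile scaling and 10 with equal summed FPKM. Nefl, a neurofilament gene, and Nos1, which makes nitric oxide in enteric neurons, were higher by 1.36 and 1.25.

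T cell and intraepithelial lymphocyte genes were mostly lower, with 10 of 15 tested called lower and 0 higher (median -1.25), although only 2 of them had 1 FPKM in all 6 libraries and neither of these was called. The list summed to 10.2 to 21.6 FPKM in large intestine and 142 to 200 FPKM in duodenum. Gzma, a granzyme of cytotoxic lymphocytes, had 0.102, 0.162 and 0.208 FPKM in large intestine, against 69.1, 61.1 and 111 FPKM in duodenum (log2 difference -6.09, SE 0.20, adjusted p = 1.65e-07). Cd3g, part of the T cell receptor complex, had 0.808, 2.11 and 0.718 FPKM in large intestine, against 8.71, 9.06 and 11.1 FPKM in duodenum (-2.31). Markers of B and plasma cells gave 1 higher of 18 and 0 lower, beside 12.7% higher and 7.16% lower over all tested genes. The higher one was Sdc1 (1.46), which epithelium also expresses. Of 11 genes of MHC class II presentation, H2-Ab1 was called lower (-1.22), and 6 were lower without duodenum library 28, 4 without large intestine library 24 and 6 with median-of-ratios scaling, while H2-Ab1 was not called with quantile normalization or equal summed FPKM. Macrophage and dendritic cell markers gave 1 lower of 13, the integrin gene Itgax (-1.03). Without duodenum library 28, large intestine library 24 or duodenum library 24 it was 4, 3 or 2, and without large intestine library 27 or duodenum library 27 it was 0. With median-of-ratios scaling or quantile normalization 4 were lower, and with equal summed FPKM 0 were lower and 1 was higher. Itgax itself was not called without duodenum library 24 or 27 or large intestine library 25 or 27.

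Of 17 proliferation genes 0 passed both limma's adjusted p and the size of 1. An adjusted p under 0.05 was reached by 5 of them, at smaller differences, and the same 5 had an unadjusted p under 0.05; the median was -0.03 (0.25 with equal summed FPKM). Without duodenum library 24, or with equal summed FPKM, 1 of the 17 was called higher. The stem cell receptor gene Lgr5 had 2.18, 2.21 and 2.04 FPKM in large intestine and 2.90, 3.22 and 1.79 FPKM in duodenum and was not called (-0.19). Olfm4, a secreted marker of small intestinal crypt base cells, had 0.471, 0.0780 and 0.0499 FPKM in large intestine, against 316, 220.4 and 158 FPKM in duodenum (log2 difference -7.56, SE 0.26, adjusted p = 6.86e-07). Prom1 and Sox9 were higher, by 1.91 and 1.38. Of 8 tested exocrine pancreas genes 2 were higher, 1 was lower and 5 were not called (median -1.30), and 3 were higher without duodenum library 28. The lower one was Rnase1, a secreted ribonuclease (-4.38). Sycn, a zymogen granule protein on this list, was higher in large intestine, with 849, 381 and 295 FPKM against 4.18, 2.49 and 6.46 FPKM in duodenum (log2 difference 6.48, SE 0.49, adjusted p = 0.00017), and Cela1, an elastase on the same list, by 3.40. Cela1 was not called without duodenum library 24 or any 1 large intestine library (3.09 to 3.63). Ptf1a, which encodes a defining factor of the exocrine pancreas, was listed at 0 in all 6 libraries, and the trypsinogen gene Prss2, chosen after its values were seen, had 0.0644, 1.25 and 0.0374 FPKM in large intestine and 0.933, 0.134 and 17.1 FPKM in duodenum. Of 11 tested hepatocyte genes 2 were lower, 1 was higher and 8 were not called (median -0.76). Cps1, a urea cycle enzyme, was lower at -6.63, Apoa2, an apolipoprotein, was lower at -1.61, and Tat, which breaks down tyrosine, was higher by 2.78. The list had 4 lower without large intestine library 25 and 1 lower when duodenum library 24 or 28 or large intestine library 24 or 27 was left out. The serum albumin gene Alb, chosen in the same way, was not called (-1.11). Of 4 tested Brunner gland and stomach markers Mia was higher (1.16; 0.79 after quantile normalization and 0.94 after median-of-ratios scaling, both under the size of 1) and 0 were lower, and 2 were higher and 1 lower without duodenum library 28.

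The remaining marker lists gave few calls or followed the absorptive genes, beside 12.7% higher and 7.16% lower over all tested genes. Of 13 enterocyte markers 10 were lower and 1 higher (median -3.17), and of 12 colonocyte markers 8 were higher and 0 lower (median 1.49). The colonocyte count was 6 without duodenum library 27. Tuft cell markers gave 1 higher, Gnat3, and 2 lower, among them Ltc4s, of 12, with 1 lower without duodenum library 27 or large intestine library 24. Of 14 crypt stem cell markers 3 were higher and 2 lower, with 1 lower without duodenum library 24. Enteric glia gave 2 higher of 7, Cryab (1.46) and Gfap (1.02), the second of which was lost without duodenum library 28 or large intestine library 25 or 27. Endothelium gave 1 of 13, the lymphatic marker Lyve1 (1.25), and adipocytes gave Lpl higher and Cidec lower of 10, Lpl not without duodenum library 27 or 28 or large intestine library 27. Mast cell and granulocyte markers gave Kit higher and Mcpt1 lower of 3, Mcpt1 not without duodenum library 27 or large intestine library 25 or 27. Gnat3, Gfap, Lyve1 and Lpl were not called with median-of-ratios scaling or quantile normalization, and Mcpt1 was not with equal summed FPKM. None of 4 erythroid genes was called, and 0 had an unadjusted p under 0.05 in limma's test, while 1 was called lower without large intestine library 25.

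**Figure D5:**
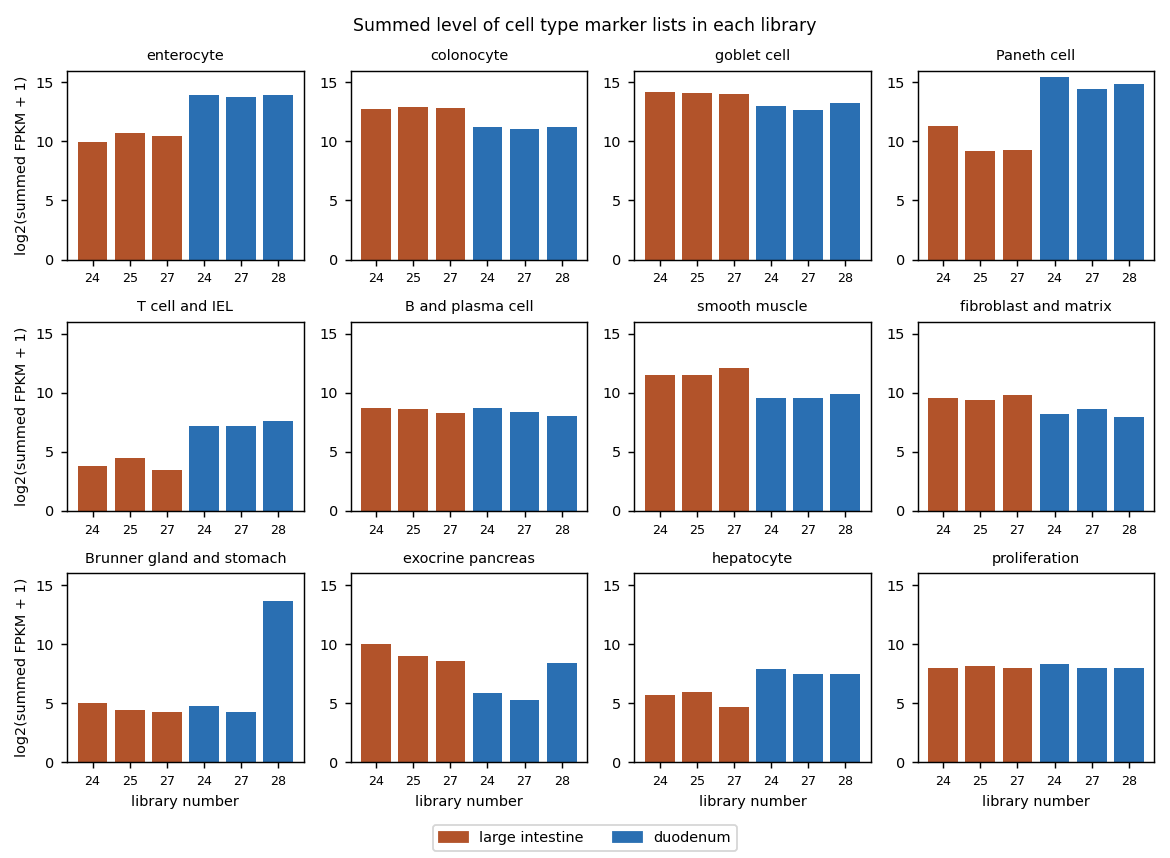
Summed FPKM of 12 cell type marker lists in each library, as log2(summed FPKM + 1), with the large intestine libraries on the left and the duodenum libraries on the right of each panel. Enterocyte, Paneth cell and T cell sums are lower in all large intestine libraries, smooth muscle and fibroblast sums are higher, and duodenum library 28 alone has a high Brunner gland and stomach sum, at 12644 FPKM.

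Beyond these lists, the largest positive differences included Sval1 (8.34), 1810065E05Rik (7.20), 2610528A11Rik (7.19), Nov, a matricellular protein (6.99), and Hao2, a peroxisomal oxidase (6.83). Nov had 109.7, 257 and 232 FPKM in large intestine, against 0.475, 0.633 and 0.354 FPKM in duodenum. The largest negative differences were taken up by alpha-defensins, apolipoproteins, Fabp1 and Reg1. Dao, a D-amino acid oxidase, was listed at 0 in the 3 large intestine libraries and had 14.2, 16.1 and 16.8 FPKM in duodenum, and Reg3d, of the Reg family, likewise had 1.46, 2.44 and 1.90 FPKM in duodenum. Of the genes at 1 FPKM in all libraries of one tissue and none of the other, 673 were tested on the large intestine side and 338 of them were called, and 256 on the duodenum side and 213 of them were called.

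The jejunum and ileum libraries, which did not enter the test, placed the called genes along the gut. On a scale where the duodenum mean is 0 and the large intestine mean is 1, the 1655 genes called higher had a median position of 0.25 in jejunum and 0.206 in ileum, and 88.8% of them in jejunum and 89.7% in ileum lay nearer to the duodenum. The 929 genes called lower had medians of 0.25 and 0.248, and 85.1% in jejunum and 78.6% in ileum lay nearer to the duodenum. In earlier results of these data, jejunum library 24 and ileum library 24 lay beside the other section, which was not measured again here. Without these libraries the shares were 97% in jejunum and 86.4% in ileum for genes called higher, and 93.8% and 70.5% for genes called lower. These positions use the duodenum and large intestine means that chose the genes and are given without a test. Single genes differed in where along the gut they changed. Car1 had 0.0190, 0 and 0 FPKM in jejunum libraries 24, 27 and 28 and 0.0121, 1.34 and 0.102 FPKM in ileum libraries 24, 25 and 27, close to its duodenum level. Slc5a8 had 22.6, 10.5 and 4.17 FPKM in jejunum and 15.4, 29.1 and 31.0 FPKM in ileum, between its end values. Reg3b had 2749, 746 and 326 FPKM in jejunum, which overlapped its duodenum values, and 2428, 1078 and 2601 FPKM in ileum, above both ends in every library.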

How the data were processed

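Gene expression was measured by RNA-seq of whole gut sections, with 3 large intestine libraries and 3 duodenum libraries out of 15 in the series. The deposited values are FPKM per gene record, and the depth of the libraries is unknown, so no count test was used. Total RNA was purified with RNA Bee and libraries were made with a TruSeq RNA kit, per the labels' protocols. The submitters' processing notes name CASAVA, FastQC, TopHat2 2.0.3, Bowtie 0.12.8, SAMtools 0.1.18, Cufflinks 2.0.0 and the mm10 build, without settings. Whether strand was used is not given in the sources used here.

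Of 23845 deposited records, 754 shared one of 258 gene symbols with another record and were summed by symbol, and 27 records with a date in place of a symbol were kept apart, which gave 23349 genes. Genes that reached 1 FPKM in 3 or more of the 6 libraries were tested on log2(FPKM + 1) with limma 3.58.1 in R 4.3.3, using moderated variances with a trend on mean level and robust settings, with Benjamini-Hochberg adjustment of p over all 12983 genes. Tested on simulated data of this size, the procedure recovered 100% of 200 genes changed by 1.5 or by 3 on the log2 scale with 0 false calls among 12783. The changed genes were drawn from those with a mean log2(FPKM + 1) above 3, and the noise followed a smooth trend on mean level. Single outlying libraries, such as those seen for Mptx1 and Tff2, were not simulated. All planted changes exceeded the size of 1, the other genes had no true difference, and no shift in scaling was simulated. In the data, 8099 genes had an adjusted p under 0.05 in limma at any size. The outcome of the simulation was therefore largely set by its settings. It gives no error rate for genes at low level, with a difference near 1, under a shift in scaling or with an outlying library. Tables were handled in Python 3.11.15.

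The gene lists and members were chosen with earlier results of these data known. Genes were named by a rule: the 12 largest and 12 smallest differences among called genes with a value in both tissues, the 4 most abundant called genes at 0 in the other tissue, the 8 with the highest mean in each tissue, up to 4 called each way per list, a fixed set, and up to 6 pairs of related genes called in opposite directions. Genes named outside it, chosen after their values were seen, were Alb, Amy2a5, Ang4, Atp4b, Chga, Fgf15, Gkn3, Hoxa4, Hoxa11, Hoxb6, Hoxc4, Hoxc5, Hoxc6, Hoxc8, Hoxc13, Mir196a-2, Mir196b, Npc1l1, Pnliprp2, Prss2, Ptf1a, Scarb1 and Slc10a2. Alternatives in scaling, pseudocount, filter, libraries and fit were tried. Promoter and microRNA sequences came from RefSeq tables, where 9595 of the 12983 tested genes (73.9%) had a promoter. Motif shares were not compared between the called groups. The liver libraries were not analysed here. Some genes that the naming rule selects are not reported here.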

Additional observations from a re-analysis of the deposited data

How the results depend on the processing

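The 1655 higher calls became 1102 with median-of-ratios scaling, 2594 with equal summed FPKM, 1065 with a mean FPKM of at least 5 and 729 when the size of 1 was tested against, which also left 606 lower calls. The median difference of all tested genes was -0.006 under median-of-ratios scaling, 0.049 after quantile normalization, 0.518 with equal summed FPKM, 0.121 with no filter and 0.18 with a mean FPKM of at least 5. No setting gave any of the 2584 called genes the other sign. Leaving out each library in turn gave 1554 to 1846 higher and 914 to 964 lower calls, sharing 92.5% to 96.5% of the calls. Of 252 named genes tested, 16 lost and 2 gained their call when some 1 library was left out. Under median-of-ratios scaling 16 lost it, after quantile normalization 13, and with the size of 1 tested against 47.

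Only numbers 24 and 27 occur in both tissues, and same-numbered libraries deviated from their group means with correlations of 0.0356 and 0.0399, so a pairing is not established. With the number as a replicate block 1573 genes were higher and 927 lower, 2354 of the calls were shared, and 22 of the named genes were no longer called, among them Aqp8, Hoxb13, Retnlb, Saa1, Defa24 and Slc15a1. The fit over all 15 libraries gave 1666 higher and 934 lower. Without jejunum 24 and ileum 24, a choice made after seeing the data, that fit gave 1666 and 939. The read depth is unknown, so counting error at low FPKM cannot be given, and 10366 genes under the filter were not tested.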
